A study of Mus musculus with 4 samples.

Results

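The natriuretic peptide system of the mouse heart was followed through 7 genes: the peptide hormone genes Nppa, Nppb and Nppc, the receptor genes Npr1, Npr2 and Npr3, and Corin, a protease that activates a peptide precursor. They were taken by symbol, through their Ensembl identifiers, and all 7 were found among the 21552 genes of the count table. The tested tissue was the remote myocardium, away from the infarct, of 2 C57BL/6 mice 7 days after the left anterior descending coronary artery was tied off for good. It was set against heart tissue of 2 uninjured C57BL/6 mice, whose source label also reads remote area and whose library names carry the same day. The labels call the uninjured libraries WT and the infarcted libraries MI. Apart from that tag, no genotype, drug, sex or age is given for either group, and no sham operation is described. Polyadenylated RNA was sequenced, and each mouse is 1 library (infarcted 1 and 2, uninjured 1 and 2). Infarcted names the heart and not the tissue taken from it, which lay away from the infarct.

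Atrial natriuretic peptide, made from Nppa, and B-type natriuretic peptide, made from Nppb, are hormones that heart muscle cells release when the wall is stretched. In the healthy adult, Nppa is mainly an atrial gene, and its return in ventricular muscle is a classical sign of load and injury, as is a rise of Nppb. Both peptides bind the receptor encoded by Npr1, a membrane guanylyl cyclase that makes cyclic GMP in vessel, kidney and heart cells and so lowers blood pressure and promotes salt loss. C-type natriuretic peptide, from Nppc, comes mainly from endothelial cells and acts through Npr2, whereas the receptor encoded by Npr3 has no cyclase domain and clears all of these peptides.

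The peptides share a ring closed by a disulfide bond between a pair of cysteines, which all of their receptors recognise. Stretches of the mouse mRNAs that encode the ring are shown because they carry what makes these genes a family. Those of Nppb and Nppc come from the GENCODE M21 transcripts, with the cysteine codons at both ends in capitals, and each holds 51 bases in 17 codons.
Nppb: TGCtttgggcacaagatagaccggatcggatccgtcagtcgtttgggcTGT
Nppc: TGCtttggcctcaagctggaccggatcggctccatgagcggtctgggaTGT
These ring regions were identical at 40 of 51 bases and 13 of 17 encoded residues. Over the full transcripts, none of the 21 pairs among the 7 genes shared a stretch of 50 bases, the length of the reads, so an error-free read from 1 member does not match another member exactly along its whole length.

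Nppa and Nppb lie side by side on chromosome 4 in GRCm38, Nppb at chr4:147985788-147987205 and Nppa at chr4:148000722-148002079, both on the plus strand and 13516 bases apart. The 250 bases before the RefSeq start of each gene (GRCm38.p6, plus strand) are printed because both stood highest among the members in infarcted hearts. Capitals mark GATAA (GATA factors), AAGTG (NKX2-5), TCACACCT (T-box factors) and TATAAA (the TATA box), on either strand. CATTCC (TEAD factors) and TGANTCA (AP-1) were also searched and are not in capitals.
Nppa, chr4:148000472-148000721: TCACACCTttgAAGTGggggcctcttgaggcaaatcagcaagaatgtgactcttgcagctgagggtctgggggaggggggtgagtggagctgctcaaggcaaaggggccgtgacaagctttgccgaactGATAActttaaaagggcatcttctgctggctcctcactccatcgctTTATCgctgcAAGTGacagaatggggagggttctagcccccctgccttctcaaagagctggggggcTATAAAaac
Nppb, chr4:147985650-147985899: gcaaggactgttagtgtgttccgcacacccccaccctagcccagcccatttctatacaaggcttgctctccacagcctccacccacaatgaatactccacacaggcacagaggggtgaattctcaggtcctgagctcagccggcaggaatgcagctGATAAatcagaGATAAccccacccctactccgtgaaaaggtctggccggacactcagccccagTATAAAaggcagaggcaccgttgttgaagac
The Nppa window held 2 matches to GATAA, 2 to AAGTG, 1 to TCACACCT and 1 to TATAAA. Relative to the RefSeq start, the TATAAA match of Nppa began at -9, against -31 in Nppb. The TCACACCT match began at -250, the first base of the window. The Nppb window held 2 matches to GATAA, 1 to TATAAA and 1 to CATTCC, and it includes the GENCODE start of the gene, which lies upstream of the RefSeq start. Of 32817 mouse promoter windows of the same length, 22.6% hold GATAA, 40.7% AAGTG, 1.12% TCACACCT, 12.4% TATAAA, 12.6% CATTCC and 6.75% TGANTCA. The Nppc window matched TATAAA alone, and those of Npr1, Npr2, Npr3 and Corin matched none of the 6 motifs. Such matches are letters in a window and not measured binding sites.

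Library totals ran from 35715115 to 70885393 counts, of which 36.7% to 48.4% fell on mitochondrially encoded genes. Called means here an adjusted p below 0.05 by edgeR's quasi-likelihood test. Of the 13905 genes with enough counts to be tested, 18.3% were called higher and 14.6% lower in infarcted hearts. The libraries of the groups did not overlap in 70.0% of the genes tested. Without uninjured 2, the calls over all genes were 102 higher and 8 lower. Among the atrial markers reported here, Dkk3 and Kcna5 were higher and Kcnj3 lower in both infarcted libraries than in both uninjured ones. Infarcted 2 stood apart in other atrial markers. Summed over 5 of them chosen after their values were seen (Myl4, Myl7, Sln, Mybphl and Bmp10), the level was 1.42 CPM (the normalised read count, scaled to a common library size) in infarcted 1 and 555 CPM in infarcted 2, against 1.90 CPM in uninjured 1 and 2.87 CPM in uninjured 2. Results on Nppa are therefore given with and without infarcted 2.

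Among the 7 members, Nppb was called higher in infarcted hearts, 5 others were tested and not called, and Nppc had too few counts to test. That is 1 of 6 tested members called, where 33.0% of all genes tested were called in either direction. By edgeR, 0 members were called lower, 0 were lower at an unadjusted p below 0.05, and DESeq2 and limma-voom also called 0 lower. Libraries of the groups did not overlap for 4 of the 6 tested members (Nppa, Nppb, Npr2 and Corin), beside the 70.0% of all genes tested. In whole tissue, fewer cells of a type and less RNA per cell cannot be told apart.

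**Figure D1:**
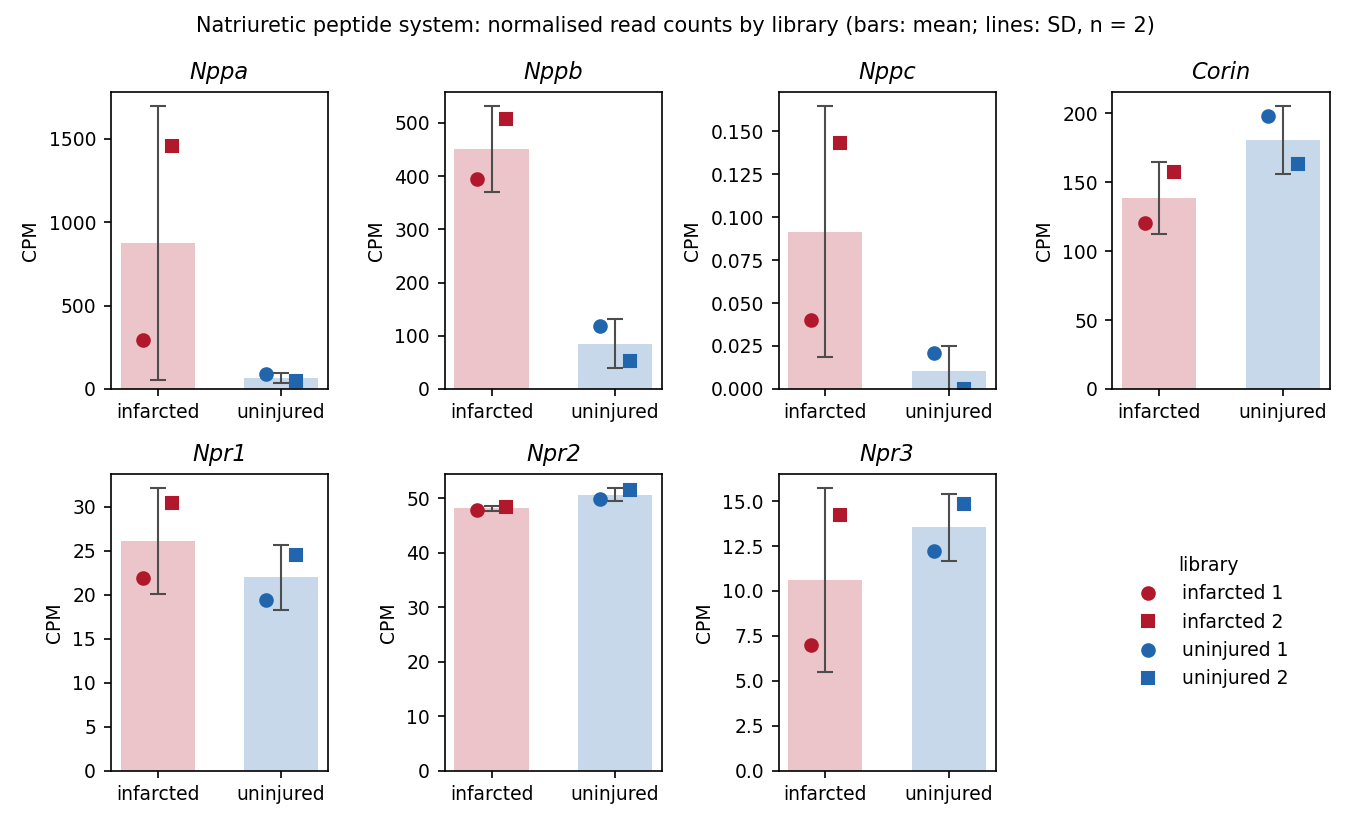
Level of each natriuretic peptide system gene in each library, in CPM on a linear axis that starts at 0 and differs between panels. Symbols are libraries, bars are group means and lines are SD (n = 2 each). Both infarcted libraries lie above both uninjured ones for Nppa and Nppb, and infarcted 2 holds 1456 CPM of Nppa against 294 CPM in infarcted 1.

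Nppb had 395 CPM in infarcted 1 and 508 CPM in infarcted 2, against 118 CPM in uninjured 1 and 52.2 CPM in uninjured 2. Both infarcted libraries were above both uninjured ones, and the infarcted libraries were the closer pair, with infarcted 2 at 1.29-fold infarcted 1 and uninjured 1 at 2.25-fold uninjured 2. The mean was 451 ± 80.4 CPM in infarcted and 84.9 ± 46.3 CPM in uninjured hearts (SD, n = 2 each). Nppb rose 5.32-fold, a log2 fold change of 2.41 ± 0.39 (SE, edgeR, adjusted p = 0.00332). Of all genes tested, 519 had a larger log2 fold change. Without infarcted 2 the log2 fold change of Nppb was 2.18 and still called. Without uninjured 2 it was 1.93 and no longer called (edgeR, adjusted p = 0.0544).

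In rank, Nppb was the 150th most counted gene in infarcted 1 and the 118th in infarcted 2, against the 762nd in uninjured 1 and the 2064th in uninjured 2, with mitochondrially encoded genes left out of the ranking. Reads across the splice sites of Nppb showed a single dominant form. Use of the 5′ splice site that adds 111 bases was 99.58% and 99.69% in infarcted libraries and 99.46% and 99.28% in uninjured libraries (edgeR, adjusted p = 0.866).

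Nppa had 294 CPM in infarcted 1 and 1456 CPM in infarcted 2, against 86.9 CPM in uninjured 1 and 46.7 CPM in uninjured 2. The groups did not overlap, but infarcted 2 was 4.96-fold above infarcted 1, a wider gap than between the uninjured libraries, where uninjured 1 was 1.86-fold uninjured 2. Relative to the uninjured mean, infarcted 1 was 4.40-fold and infarcted 2 was 21.8-fold higher. The group means were 875 ± 822 CPM in infarcted and 66.8 ± 28.4 CPM in uninjured hearts (SD, n = 2 each).

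The log2 fold change of Nppa, 3.71 ± 1.20 (SE), was not called by edgeR's quasi-likelihood test (adjusted p = 0.151; unadjusted, 0.0706). It was called by DESeq2, at 3.68 with an adjusted p of 0.00247, and by limma-voom, at 3.37 with an adjusted p of 0.00273. The estimate also depended on which infarcted library was kept. With infarcted 2 left out it was 2.10 (edgeR, adjusted p = 9.13e-11), and with infarcted 1 left out it was 4.36 (edgeR, adjusted p = 3.62e-33), where the lone infarcted library is assumed to vary like the uninjured pair. Among all genes tested, 84 had a larger excess of infarcted 2 over infarcted 1, and 137 had a larger log2 fold change between groups. Nppa was the 28th most counted gene in infarcted 2, with mitochondrially encoded genes left out, and the 227th in infarcted 1, against the 1082nd in uninjured 1 and the 2341st in uninjured 2.

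The atrial marker list reported here has 8 genes, and 5 of them were tested. Kcna5 was called higher, Kcnj3 was called lower, and the median log2 fold change of those tested was 5.28, beside 0.02 over all genes tested. Summed over the 8 genes, the level was 82.7 CPM in infarcted 1 and 718 CPM in infarcted 2, against 100.4 CPM in uninjured 1 and 97.2 CPM in uninjured 2. Infarcted 1 was below both uninjured libraries in this sum through Kcnj3 alone. Without Kcnj3 the sum was 41.0 CPM in infarcted 1 and 682 CPM in infarcted 2, against 14.9 CPM in uninjured 1 and 16.1 CPM in uninjured 2. Without infarcted 2, the median over the list's tested genes was -0.55.

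Myl4, the atrial essential myosin light chain, had 1.34 and 361 CPM in infarcted libraries and 1.42 and 2.44 CPM in uninjured libraries. Myl7, the atrial regulatory light chain, had 0.0800 and 132 CPM in infarcted libraries and 0.271 and 0.319 CPM in uninjured libraries. Sarcolipin (Sln), a small inhibitor of the calcium pump, had 0 and 34.7 CPM in infarcted libraries and 0.0418 and 0.0159 CPM in uninjured libraries. For these 3 genes infarcted 1 lay at or below the uninjured libraries and infarcted 2 far above all others. The myosin-binding protein gene Mybphl had 0 and 26.8 CPM in infarcted libraries and 0.167 and 0.0956 CPM in uninjured libraries. The growth factor gene Bmp10 had 0 and 1.38 CPM in infarcted libraries and 0 CPM in both uninjured libraries. The number of these 5 markers at 0 counts was 3 in infarcted 1 and 0 in infarcted 2, against 1 in each uninjured library, where 3 counts equal 0.0478 to 0.0715 CPM depending on the library.

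Dkk3, a secreted protein enriched in atria, had 22.3 and 106 CPM in infarcted libraries and 2.07 and 1.27 CPM in uninjured libraries. Unlike the 5 genes above, it was higher in infarcted 1 too, and its log2 fold change of 5.28 ± 1.28 (SE, edgeR) had an adjusted p of 0.100. Kcna5, a potassium channel gene of the atrial list, had 17.3 and 20.6 CPM in infarcted libraries and 10.98 and 11.96 CPM in uninjured libraries (log2 fold change 0.72 ± 0.20, edgeR, adjusted p = 0.0152). Kcnj3, a subunit of the acetylcholine-gated potassium channel, fell to 41.7 and 36.1 CPM in infarcted libraries, against 85.5 and 81.1 CPM in uninjured libraries (log2 fold change -1.10 ± 0.19, edgeR, adjusted p = 0.000851). The call of Kcna5 was lost without infarcted 2 (edgeR, adjusted p = 0.187), without uninjured 1 (0.0699) and without uninjured 2 (0.0897), and that of Kcnj3 without uninjured 2 (0.0545). The part of atrial tissue in the Nppa level was not tested for either infarcted library. In infarcted 1, Nppa was 4.40-fold the uninjured mean. Of the 5 markers chosen after their values were seen, 3 were at 0 counts there. The sum of these 5 was 0.596-fold the uninjured mean. Outside these 5, Dkk3 was 13.4-fold and Kcna5 1.51-fold the uninjured mean in infarcted 1, whereas Kcnj3 was below both uninjured libraries.

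**Figure D2:**
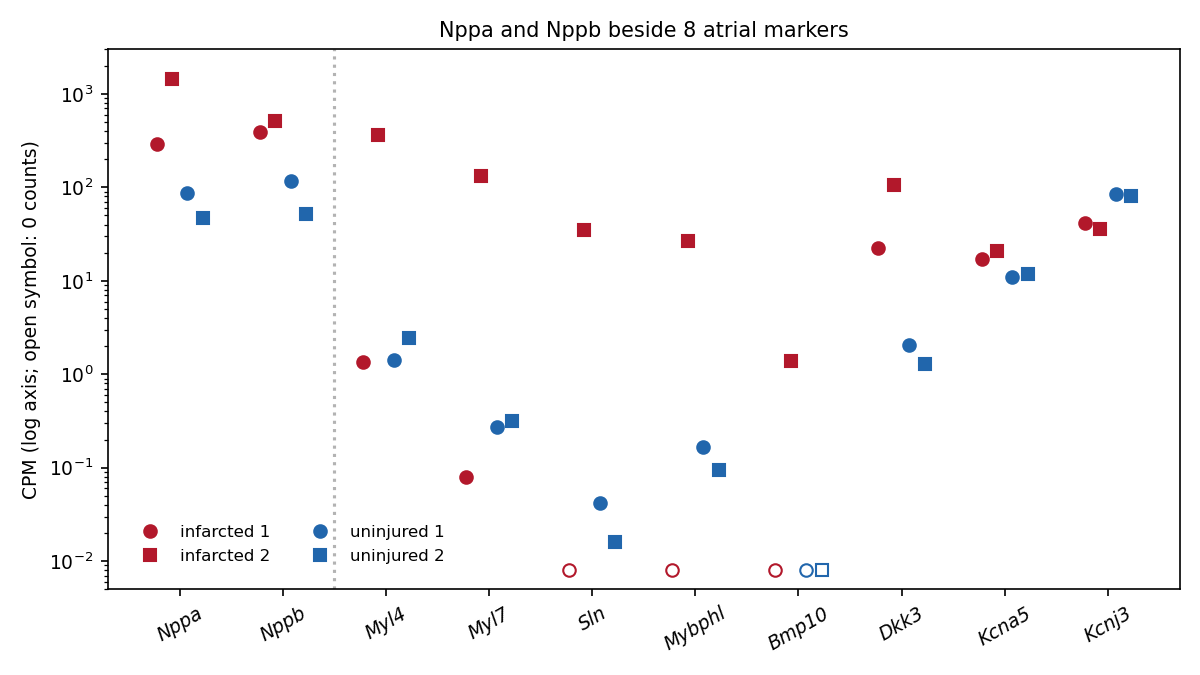
Nppa and Nppb beside 8 atrial markers, in CPM on a log axis, with 1 symbol per library and open symbols for 0 counts. Myl4, Myl7, Sln, Mybphl and Bmp10 are high in infarcted 2 alone, whereas Nppa, Nppb, Dkk3 and Kcna5 are above both uninjured libraries in both infarcted ones.

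Per kilobase of the longest transcript, Nppa over Nppb was 0.672 in infarcted 1 and 2.59 in infarcted 2, against 0.667 in uninjured 1 and 0.807 in uninjured 2. Nppb was thus the more abundant of the 2 mRNAs in every library but infarcted 2.

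Markers of other cell types are read against the 18.3% of all genes called higher and the 14.6% called lower. Over the 8 genes of the ventricular muscle list the summed level was 25424 and 21225 CPM in infarcted libraries and 37437 and 47883 CPM in uninjured libraries. Of the 8, 5 were called lower, and the median log2 fold change was -1.04. Myh6, Actc1 and Tnni3 of this list are not restricted to ventricle, and Myh6 and Actc1 were its highest genes in every library. All 6 macrophage markers were called higher, with sums of 276 and 290 CPM in infarcted and 123 and 101 CPM in uninjured libraries. Of 7 fibroblast markers 3 were called higher, with sums of 3076 and 3244 CPM in infarcted and 1336 and 1778 CPM in uninjured libraries. The 5 smooth muscle and pericyte markers had 1 call in each direction, near those shares. The 8 endothelial markers summed to 1147 and 933 CPM in infarcted and 943 and 911 CPM in uninjured libraries, and edgeR called 0 of them, with 2 higher and 1 lower at an unadjusted p below 0.05. DESeq2 called 1 endothelial marker higher, and limma-voom called 0. Without uninjured 2, calls fell to 0 ventricular, 1 macrophage and 2 fibroblast markers. None of the genes of the ventricular list was at 0 in any library, and the part of these shifts in the values of the members was not tested.

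Nppc was close to absent from the tissue. It had 2 and 6 counts in infarcted libraries and 1 and 0 counts in uninjured libraries, or 0.040 and 0.143 CPM in infarcted and 0.0209 and 0 CPM in uninjured ones. The count was at or below 3 in 3 of the 4 libraries, so no fold change is given, and a difference was not detectable at this depth.

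Corin encodes a membrane serine protease of heart muscle cells that cuts the precursor of atrial natriuretic peptide into the active hormone. It had 120 CPM in infarcted 1 and 157 CPM in infarcted 2, against 198 CPM in uninjured 1 and 163 CPM in uninjured 2. Infarcted libraries were both below uninjured ones, by a small margin between infarcted 2 and uninjured 2. The mean was 139 ± 26.2 CPM in infarcted and 180 ± 24.8 CPM in uninjured hearts (SD, n = 2 each), and the log2 fold change of -0.38 ± 0.21 (SE) was not called (edgeR, adjusted p = 0.193). It was called once the trend of fold change with transcript length was removed, at -0.54 (edgeR, adjusted p = 0.04999), and was -0.02 with library totals in place of normalization factors, a scaling that moved the median of all genes to 0.36. A 201-base exon of Corin was included at 98.28% and 98.61% in infarcted libraries and 98.61% and 97.52% in uninjured libraries (edgeR, adjusted p = 0.972).

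The ratio of peptide mRNA to Corin mRNA was higher in both infarcted libraries than in both uninjured ones. Per kilobase, Nppa and Nppb together were 34.2-fold Corin in infarcted 1 and 72.1-fold in infarcted 2, against 6.17-fold in uninjured 1 and 3.60-fold in uninjured 2. Nppb alone was 20.4-fold and 20.1-fold Corin in infarcted libraries and 3.70-fold and 1.99-fold in uninjured libraries. Nppb over Corin was almost the same in both infarcted libraries, which differ so widely in Nppa.

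Other proteases act on the same system. Furin, a proprotein convertase that cuts the precursors of the B-type and C-type peptides, had 110.0 and 117 CPM in infarcted libraries and 83.3 and 97.9 CPM in uninjured libraries (log2 fold change 0.32 ± 0.19, edgeR, adjusted p = 0.213). Pcsk6, a related convertase that activates corin itself, had 48.3 and 42.4 CPM in infarcted libraries and 58.1 and 60.3 CPM in uninjured libraries (log2 fold change -0.38 ± 0.18, edgeR, adjusted p = 0.125). The groups did not overlap for either, and neither was called. Mme encodes neprilysin, a membrane peptidase that degrades natriuretic peptides, and it fell to 4.70 and 2.67 CPM in infarcted libraries, against 7.89 and 6.07 CPM in uninjured libraries. Its log2 fold change was -0.92 ± 0.29 (edgeR, adjusted p = 0.0303). The call of Mme was lost without infarcted 2 (edgeR, adjusted p = 0.224), without uninjured 1 (0.249) and without uninjured 2 (0.161), and with library totals in place of normalization factors (0.123). The peptidase genes Ide and Dpp4 had log2 fold changes of -0.02 and -0.25 and were not called.

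All 3 receptor genes were tested and not called. Npr1, the receptor for the atrial and B-type peptides, had 21.9 and 30.4 CPM in infarcted libraries and 19.4 and 24.5 CPM in uninjured libraries. The groups overlapped, and the log2 fold change was 0.25 ± 0.22 (SE, edgeR, adjusted p = 0.413), or -0.03 without infarcted 2. Npr2, the receptor for the C-type peptide, had the smallest log2 fold change of the 6 tested members, with 47.9 and 48.5 CPM in infarcted libraries and 49.8 and 51.6 CPM in uninjured libraries. Its group means were 48.2 ± 0.419 CPM in infarcted and 50.7 ± 1.23 CPM in uninjured hearts (SD, n = 2 each), with a log2 fold change of -0.07 ± 0.18 (SE, edgeR, adjusted p = 0.785) that turned to 0.27 with library totals.

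Npr3, the clearance receptor, had 6.98 CPM in infarcted 1 and 14.2 CPM in infarcted 2, against 12.2 CPM in uninjured 1 and 14.9 CPM in uninjured 2. Infarcted 1 was the low library, and infarcted 2 lay between the uninjured ones. The log2 fold change was -0.36 ± 0.31 (SE, edgeR, adjusted p = 0.419), and 0.01 with library totals. Without infarcted 2 it was -0.98 and called (edgeR, adjusted p = 0.0208), and without infarcted 1 it was -0.01 (adjusted p = 0.993). Of all genes tested, 497 had a larger excess of infarcted 2 over infarcted 1 than Npr3.

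Per kilobase of the longest transcript, Npr2 made up most of the receptor mRNA in every library, with 67.2% and 58.1% in infarcted libraries and 67.6% and 63.2% in uninjured libraries. Npr1 made up 27.6% and 32.8% in infarcted libraries and 23.7% and 27.1% in uninjured libraries. Npr3 made up 5.20% and 9.07% in infarcted libraries and 8.80% and 9.68% in uninjured libraries. The peptides Nppa and Nppb together were 45.8-fold and 113-fold the sum of the cyclase receptors Npr1 and Npr2 in infarcted libraries, and 13.7-fold and 6.00-fold in uninjured libraries. As a group mean per kilobase, the order in infarcted hearts was Nppa at 1011 ± 950 CPM, Nppb at 578 ± 103, Corin at 28.5 ± 5.38, Npr2 at 13.2 ± 0.114, Npr1 at 6.42 ± 1.48, Npr3 at 1.54 ± 0.744 and Nppc at 0.0878 ± 0.0699 (SD, n = 2 each). In uninjured hearts Nppb came first at 109 ± 59.3, then Nppa at 77.2 ± 32.9, Corin at 37.1 ± 5.09, Npr2 at 13.8 ± 0.337, Npr1 at 5.40 ± 0.899, Npr3 at 1.96 ± 0.272 and Nppc at 0.010 ± 0.0142 CPM per kilobase (SD, n = 2 each). The means of Nppa and Nppb differed by less than the SD of either in uninjured hearts, and by less than the SD of Nppa but more than that of Nppb in infarcted hearts.

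**Figure D3:**
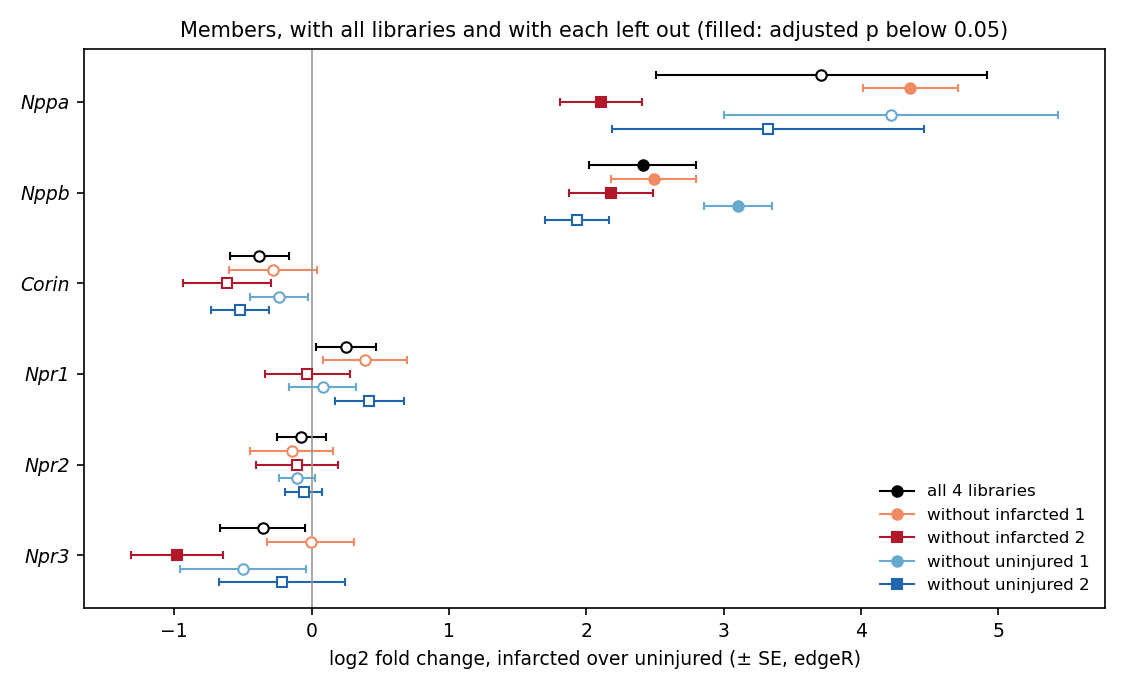
Log2 fold change of infarcted over uninjured hearts for the 6 tested members, by edgeR, with all 4 libraries and with each library left out, with lines for SE and filled symbols where the adjusted p is below 0.05. Nppa runs from 2.10 to 4.36, Nppb from 1.93 to 3.10, and the receptors and Corin stay between -0.98 and 0.42.

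An event with more than a pair of alternative splice sites counts here once per listed site. By that count the splicing table held 39 events in 5 members and none in Nppa or Nppc. There were 20 in Npr1, 7 in Npr2, 5 in Npr3, 4 in Corin and 3 in Nppb. Of these, 27 had at least 10 reads in each library, and 21 of the 27 stayed within 5 points of 0% or 100% inclusion in every library. Over all genes, 0 of 8581 events with enough reads were called by edgeR (0.00%), with 555 at an unadjusted p below 0.05. Limma on the logit of inclusion also called 0, and with binomial weights it called 85, none of them in a member.

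Among the 27 events with at least 10 reads in each library, a 75-base exon of Npr2 had the widest range of inclusion. It lies at chr4:43656207-43656281 in mm9 on the plus strand. By its length and those of its flanking introns, 160 and 196 bases, it matches coding exon 9 of the 22-exon GENCODE transcript (GRCm38, chr4:43643335-43643409), starts at a codon boundary and encodes 25 residues. In rodents, the receptor form without this exon lacks part of its kinase homology domain, binds the C-type peptide and makes less cyclic GMP in response. The exon is printed whole in lower case, since inclusion or skipping removes all of it in frame.
Npr2 exon 9: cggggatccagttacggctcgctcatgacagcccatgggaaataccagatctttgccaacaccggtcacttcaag
Inclusion was 85.84% in infarcted 1 and 87.18% in infarcted 2, against 81.44% in uninjured 1 and 76.79% in uninjured 2. Both infarcted libraries were above both uninjured ones, with means of 86.5% ± 0.948 in infarcted and 79.1% ± 3.29 in uninjured hearts (SD, n = 2 each). The difference of 7.40 points gave a log2 odds ratio of 0.75 ± 0.53 (SE) and was not called (edgeR, adjusted p = 0.840). It rested on 90.13 inclusion and 14.87 exclusion reads in infarcted 1 and 63.64 and 9.36 in infarcted 2, against 71.67 and 16.33 in uninjured 1 and 76.02 and 22.98 in uninjured 2, as corrected by the authors. The median absolute difference over all events tested was 2.79 points. Of the events tested, 24.1% had a p below that of this exon.

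**Figure D4:**
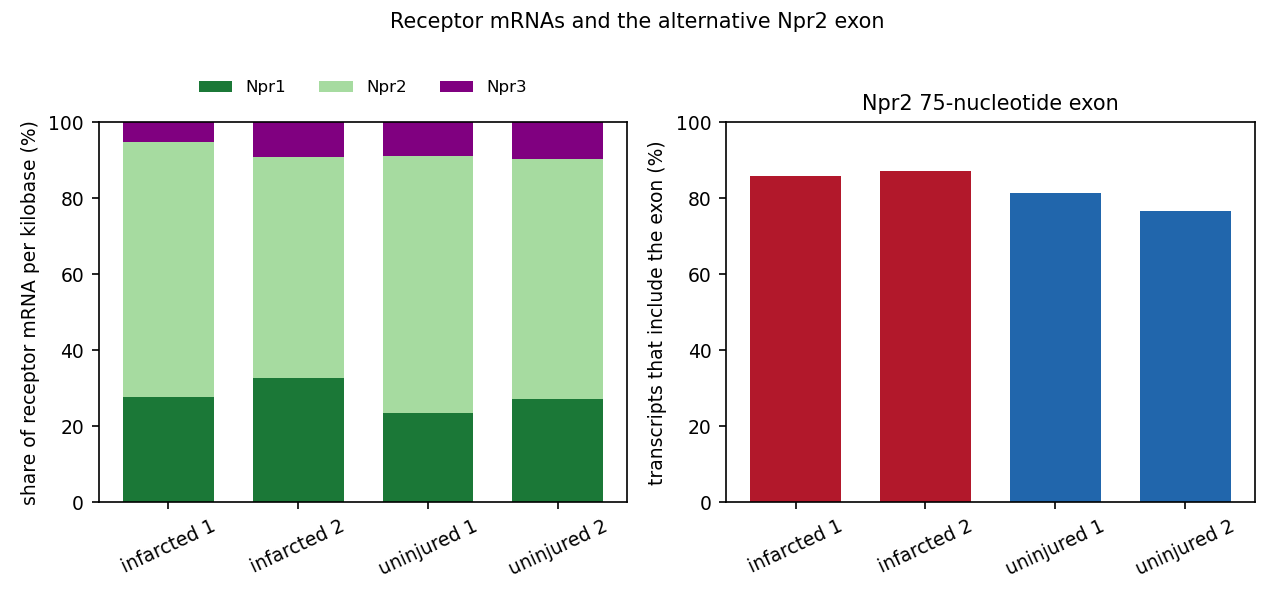
Left, share of Npr1, Npr2 and Npr3 in the receptor mRNA of each library, in percent of CPM per kilobase of the longest transcript. Right, percent of Npr2 transcripts that include the 75-base exon, with 1 bar per library, 85.84% and 87.18% in infarcted and 81.44% and 76.79% in uninjured ones.

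Downstream of the receptors, 18 of 20 listed genes of peptide processing and cyclic GMP signalling were tested. Of these, 4 were called higher (Pde1a, Pde5a, Vasp and Gucy1a1) and 2 lower (Pln and Mme), beside 18.3% and 14.6% of all genes tested. The median log2 fold change was 0.32 over the list and 0.02 over all genes tested. Without uninjured 2, which also left few calls over all genes, 0 genes of the list were called higher or lower by edgeR, with 4 higher and 2 lower at an unadjusted p below 0.05.

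Pde1a, a phosphodiesterase that breaks down cyclic GMP when calcium is high, had 9.84 and 14.0 CPM in infarcted libraries and 4.38 and 4.13 CPM in uninjured libraries. It rose 2.80-fold (log2 fold change 1.48 ± 0.24, edgeR, adjusted p = 0.000689), and every infarcted library was above every uninjured one. Pde5a, the cyclic GMP phosphodiesterase blocked by sildenafil, had 7.16 and 8.70 CPM in infarcted libraries and 5.11 and 3.52 CPM in uninjured libraries (log2 fold change 0.88 ± 0.26, edgeR, adjusted p = 0.0192). The call of Pde5a was lost without infarcted 2 (adjusted p = 0.123), without uninjured 2 (0.171) and with the length trend removed (0.0516, all edgeR).

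Vasp, an actin regulator and a substrate of the cyclic GMP-dependent kinase, had 42.2 and 36.7 CPM in infarcted libraries and 27.4 and 26.1 CPM in uninjured libraries (log2 fold change 0.56 ± 0.19, edgeR, adjusted p = 0.0345). The call of Vasp was lost with any library left out, at edgeR adjusted p values from 0.0669 to 0.395. Gucy1a1, a subunit of the soluble guanylyl cyclase that answers to nitric oxide, had 30.8 and 33.2 CPM in infarcted libraries and 24.6 and 18.9 CPM in uninjured libraries (log2 fold change 0.56 ± 0.20, edgeR, adjusted p = 0.0472). The call of Gucy1a1 was lost without infarcted 1 (edgeR, adjusted p = 0.197), without infarcted 2 (0.271) and without uninjured 2 (0.181). It was also lost with the length trend removed (edgeR, adjusted p = 0.0797), upper-quartile factors (0.0556), RLE factors (0.0530), DESeq2 (0.0512) and limma-voom (0.0507). Its partner subunit Gucy1b1 had a log2 fold change of 0.53 ± 0.21 and was not called (edgeR, adjusted p = 0.0748).

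Phospholamban (Pln), which restrains the calcium pump of heart muscle and is a substrate of this kinase and of protein kinase A, fell to 2439 and 2125 CPM in infarcted libraries, against 5301 and 4838 CPM in uninjured libraries. Its log2 fold change of -1.15 ± 0.26 (edgeR, adjusted p = 0.00448) stood beside a median of -1.04 for the ventricular muscle list. Without uninjured 2 the adjusted p of Pln was 0.0572 and that of Pde1a was 0.0757 (edgeR). The kinase genes Prkg1 and Prkg2 had log2 fold changes of 0.97 ± 0.40 (edgeR, adjusted p = 0.0821) and 0.32 ± 0.53 (adjusted p = 0.678). Pde1c, Pde3a, Pde9a, Abcc4 and Nos3 were tested and not called, Ostn had too few counts, and Pde2a was not matched in the table.

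**Figure D5:**
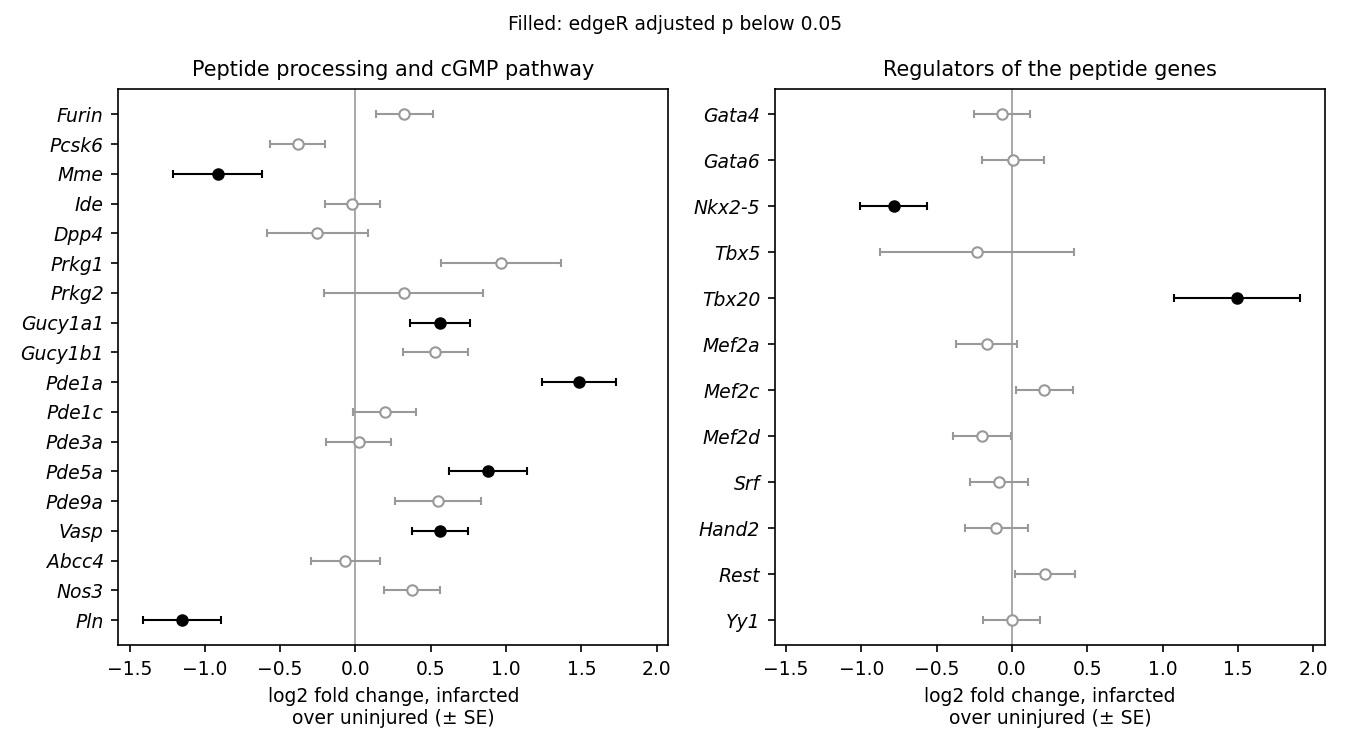
Log2 fold change of infarcted over uninjured hearts by edgeR, with lines for SE, for the 18 tested genes of peptide processing and cyclic GMP signalling (left) and the 12 regulators of the peptide genes (right). Filled symbols, 6 on the left and 2 on the right, have an adjusted p below 0.05.

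All 12 listed transcription factors that are known to regulate Nppa or Nppb were tested. Tbx20 was called higher and Nkx2-5 was called lower, beside 18.3% and 14.6% of all genes, and the median log2 fold change was -0.08. Tbx20, a T-box factor of heart muscle, had 59.1 and 72.5 CPM in infarcted libraries and 32.7 and 14.1 CPM in uninjured libraries (log2 fold change 1.49 ± 0.42, edgeR, adjusted p = 0.0482). Like Nppb, it was lowest in uninjured 2. The homeobox factor Nkx2-5, an activator of Nppa, had 26.7 and 24.8 CPM in infarcted libraries and 34.8 and 54.0 CPM in uninjured libraries (log2 fold change -0.79 ± 0.22, edgeR, adjusted p = 0.0159). Without uninjured 2 neither was called, with edgeR adjusted p values of 0.0672 for Tbx20 and 0.135 for Nkx2-5. The call of Nkx2-5 was also lost without infarcted 2 (0.0616), with library totals (0.131) and with the length trend removed (0.0666, all edgeR). The call of Tbx20 was lost with upper-quartile factors (edgeR, adjusted p = 0.0664), without the filter on low counts (0.0993) and without mitochondrially encoded genes (0.0646).

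Gata4, a zinc-finger activator of both peptide genes, had 111 and 113 CPM in infarcted libraries and 117 CPM in both uninjured libraries (log2 fold change -0.07 ± 0.19, edgeR, adjusted p = 0.813). Tbx5, a T-box factor higher in atria than in ventricles, was the regulator that differed most between the infarcted libraries, with 12.3 CPM in infarcted 1 and 38.5 CPM in infarcted 2, against 29.9 and 29.7 CPM in uninjured libraries. Its log2 fold change was -0.23 ± 0.65 (edgeR, adjusted p = 0.826). Infarcted 1 was the low library for Tbx5, as for Npr3.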

How the data were processed

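Poly-A RNA of 2 infarcted and 2 uninjured hearts was sequenced on an Illumina GAII as single-end reads of 50 bp, per the labels' protocols. The authors deposited raw counts per Ensembl gene, which were not normalized, and a table with the percent inclusion of exons and splice sites and corrected reads, on mm9 per the submitters' processing notes. For aligner, counter, event caller and strandedness, nothing is given in the sources used here. Annotated genes overlap Nppa, Npr1, Npr2, Npr3 and Corin and are not rows of the count table, so their reads cannot be told apart from those of the members.

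Symbols, positions and transcript lengths came from GENCODE M21 (20450 identifiers matched, 1102 not), and promoters from RefSeq. Counts were tested in edgeR 4.0.16 in R 4.3.3 (TMM, filterByExpr by group, robust quasi-likelihood test), with Benjamini-Hochberg adjustment over 13905 genes and a threshold of 0.05. SE was taken from the F statistic (size of the log2 fold change over the root of F), and CPM use TMM library sizes. The biological coefficient of variation was 19.3%. Events with at least 10 reads in each library and 5 reads of each form were tested in edgeR as a form-by-group interaction with a term for each library. DESeq2 1.42.0, limma 3.58.1, other scalings and each library left out were alternatives. Steps were tested on simulated data. Ranges of total counts limit precision for counting error only.

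The members and gene lists were chosen with earlier results of these data known. Named are all 7 members, the atrial markers, up to 6 genes of each other list with the smallest p, the remaining genes of a list where its counts are explained, and the 5 genes with the profiles most like Nppa and Nppb. Every listed gene outside that rule was chosen after its values were seen. Some items are not reported here, and the atrial list is given without them.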

Additional observations from a re-analysis of the deposited data

How the results depend on the processing

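With 2 mice a group, single libraries decide many calls. Depth limits Nppc, at 6 counts or fewer, and the Npr2 exon, at 73 reads in the shallowest library. Nppb kept its direction and call under RLE and upper-quartile factors, library totals, no filter, DESeq2, limma-voom, the block, the length trend and no mitochondrially encoded genes, and its log2 fold change ran from 1.93 to 3.10 with 1 library left out. By DESeq2 the log2 fold change of Nppb was 2.53 without infarcted 1 and 2.21 without infarcted 2, and not called in either fit. It was 3.08 without uninjured 1 and 1.91 without uninjured 2, and called in both. Nppa was called by DESeq2 (3.68) and limma-voom (3.37), so members called higher were 2 by either. With 1 library left out Nppa ran from 2.10 to 4.36 by edgeR. The DESeq2 call of Nppa was lost without uninjured 2, at 3.30, and kept with any other library left out. The other leave-one-out ranges were -0.0303 to 0.42 for Npr1, -0.14 to -0.06 for Npr2, -0.98 to -0.00566 for Npr3 and -0.61 to -0.24 for Corin. Removing the length trend left Corin called lower at -0.54, the 1 member called lower there, and Mef2c at -0.0487 and Rest at -0.0592. Library totals alone moved the median of all genes from 0.02 to 0.36 and gave Npr2 0.27, Npr3 0.0107, Mef2d 0.15 and Mef2a 0.18. The direction of Npr2, Npr3, Mef2d and Mef2a turned with library totals, and that of Mef2c and Rest with the length trend removed. Npr1, Myl4 and Myl7 turned without infarcted 2. The cause of these changes was not tested.

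Calls over all genes were 4386 higher and 786 lower with library totals, and 102 to 2144 higher and 8 to 1824 lower with 1 library left out. Members called ran from 0 to 2 higher and 0 to 1 lower with 1 library left out. The pathway list had 9 called higher and 1 lower with library totals and 2 higher with the length trend removed, and 0 to 5 higher and 0 to 2 lower with 1 library left out. The regulators had 0 called higher with upper-quartile factors, no filter or no mitochondrially encoded genes, 3 higher and 0 lower with library totals, 0 lower with the length trend removed, and 0 to 1 in each direction with 1 library left out; by edgeR 1 regulator in each direction stayed below an unadjusted p of 0.05 with upper-quartile factors. The atrial list had 4 called higher by DESeq2 and 2 by limma-voom, and 0 to 7 higher and 0 to 1 lower with 1 library left out. With 1 library left out, Myl7 ran from -1.88 to 8.70 and Myl4 from -0.55 to 7.46, each lowest without infarcted 2. Per kilobase of mean transcript length, levels were 18.1 in infarcted and 15.2 CPM in uninjured hearts for Npr1, 30.9 and 32.5 for Npr2, 3.01 and 3.84 for Npr3, and 49.7 and 64.7 for Corin, in the same order of groups; the longer transcripts weigh less there by construction.

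Limma with binomial weights, chosen after seeing the data, called 85 events over all genes, where edgeR, limma without weights and each library left out called 0. With 1 library left out, the log2 odds ratio ran from -1.82 to 2.02 for a rare Nppb splice site, from -0.15 to 0.67 for the Corin exon and from -0.0599 to 4.79 for a rare Npr2 splice site.

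Replicate numbers are shared by the groups, but nothing ties them to a litter or day, and deviations of same-numbered libraries correlated at 0.07 over 9510 genes. With the replicate block, 2950 genes were called higher and 2340 lower, the pathway list had 6 higher and 2 lower, and Nppb was 2.51 and Nppa 3.36 (edgeR, adjusted p = 0.459). The block was not run for splicing events, where the term for each library holds its total reads and not a replicate effect on inclusion.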

Other observations

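Genes with profiles like those of the peptide hormones were found by the root mean square difference of log2 CPM, centred on each gene's mean over the 4 libraries, among 9510 tested genes with a mean of at least 5 CPM. Nearest to Nppa were Prg4, a secreted lubricating proteoglycan, at 0.23, Myh7, the slow myosin heavy chain of fetal and stressed ventricle, at 0.23, Itih4 at 0.46, Eln, which encodes elastin, at 0.52, and the complement gene C4b at 0.54. Myh7 had 344 CPM in infarcted 1 and 1632 CPM in infarcted 2, against 67.8 CPM in uninjured 1 and 43.5 CPM in uninjured 2. The order of libraries was that of Nppa, which picking by profile largely fixes in advance. Like Nppa, Myh7 was not called (log2 fold change 4.15, edgeR, adjusted p = 0.110), whereas Eln (3.15, edgeR, adjusted p = 0.00995) and C4b (3.25, edgeR, adjusted p = 0.0381) were.

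Nearest to Nppb were Gpc6, a membrane heparan sulfate proteoglycan, at 0.13, the matrix protein gene Abi3bp at 0.15, the clock gene Per2 at 0.21, Plek, a leukocyte and platelet signalling protein, at 0.22, and the microtubule-associated Map1b at 0.22. Per2 had 16.2 and 20.1 CPM in infarcted libraries and 5.53 and 2.96 CPM in uninjured libraries (log2 fold change 2.10, edgeR, adjusted p = 0.000360). All 5 were called higher, and all had their lowest level in uninjured 2, as Nppb did, which picking by profile largely fixes in advance. Over 4 libraries that share their depth and scaling, likeness is a description.

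Among genes that neighbour Nppb and Nppa on chromosome 4 in GRCm38, the chloride transporter gene Clcn6, next to Nppa, had 6.84 and 7.53 CPM in infarcted libraries and 5.78 and 4.59 CPM in uninjured libraries (log2 fold change 0.47, edgeR, adjusted p = 0.146). The mitochondrial fusion gene Mfn2 had 569 and 590.3 CPM in infarcted libraries and 747 and 956 CPM in uninjured libraries (log2 fold change -0.55, edgeR, adjusted p = 0.0810). Miip, Fv1, Plod1, 2510039O18Rik and Agtrap had log2 fold changes between -0.38 and 0.26 and were not called.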
